A study of Mus musculus with 4 samples.

Results

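The p53 pathway genes examined here were Trp53, which encodes the transcription factor p53, its inhibitors Mdm2 and Mdm4, and 7 target genes, Cdkn1a, Ccng1, Sesn2, Bax, Perp, Trp53inp1 and Phlda3. They were taken by gene symbol from a deposited table of 22063 genes, and each of the 10 symbols matched 1 row. All 10 passed the filter on low counts that left 11419 genes for testing. The members were selected on the pathway and with their fold changes between treated and control cells in these same 4 libraries already known. Their fold changes and p-values between the groups therefore describe the members and support nothing further.

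p53 is kept at a low level in unstressed cells because Mdm2, a ubiquitin ligase, marks it for degradation. Mdm4 is a relative of Mdm2 that covers the activation domain of p53, and it forms a complex with Mdm2. When DNA damage or other stress releases p53, it turns on genes that stop the cell cycle, adjust metabolism or start apoptosis, and also the Mdm2 gene, which closes a feedback loop. In the airway epithelium the pathway is best known for its part in the response to DNA damage and for its loss in lung tumours.

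RNA was sequenced from wild type C22 cells, an immortalized line derived from mouse Club cells, which are secretory cells that line the small airways. Cells received 10 µM norepinephrine (NE, which sympathetic nerves release) or vehicle, and both groups were collected after 3 h, with 2 libraries per group. The series title places the comparison in work on contacts between nerve fibres and lung epithelium, and NE against vehicle is the only contrast in the 4 libraries. Both groups come from the same single cell line, and the labels do not say whether replicates were separate cultures, so p-values measure a spread that may be technical. The labels do not name the immortalizing gene. As background, C22 is known as a conditionally immortalized line from a mouse carrying a temperature-sensitive large T antigen of a simian virus, a protein that binds and blocks p53. Neither its presence nor its activity was measured here.

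Total counts ranged from 14783176 to 18491334 per library, and no pair of libraries agreed within sampling noise (chi-square per degree of freedom of at least 4.64). The vehicle pair stood at 6.73 and the NE pair at 4.64. Vehicle replicate 2 against NE replicate 1 gave 6.32, less than the vehicle pair, and the remaining pairs across groups gave 8.35 to 13.9. The cells lacked most defining transcripts of Club cells: Scgb1a1, which encodes the main secretoglobin, had 2 counts over all libraries, and none were found for the secretoglobin gene Scgb3a2 or for Cyp2f2, a cytochrome P450 gene. A count of 0 allows up to 0.203 CPM in the shallowest library (CPM, counts scaled to a library total common to all). In all 6 of 10 Club cell markers were at 0. The list summed to 774 and 963 CPM in vehicle and 771 and 782 CPM in NE, nearly all of it from Aldh1a1, an aldehyde dehydrogenase gene and the only one of the list above 10 CPM. The epithelial adhesion gene Epcam had 0 counts, as did 3 of the 8 epithelial markers in all. That list summed to between 1621 and 1818 CPM in vehicle and between 1719 and 1764 CPM in NE, most of it from keratin genes such as Krt8 (853 to 951 CPM). The mesenchymal filament gene Vim stood between 2686 and 3142 CPM. The summed level of the 8 mesenchymal markers was 6882 and 7380 CPM in vehicle and 6371 and 6683 CPM in NE, with 0 of the 8 markers at 0 counts. Leukocyte markers summed to between 6.28 and 15.5 CPM and endothelial markers to between 1.24 and 3.58 CPM. The part of these marker levels in the results below was not tested, and in bulk RNA fewer cells of a type and less RNA per cell cannot be told apart.

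All 10 genes were transcribed in every library, and their levels per kilobase of the longest transcript fell into 4 tiers. Ccng1, which encodes cyclin G1, a p53 target that works with a phosphatase, was the highest with a mean of 212 CPM per kilobase over the 4 libraries (range 196 to 233). The second tier held Trp53 (mean 93.8, range 89.6 to 101 CPM per kilobase), Bax (86.8, 82.8 to 95.1), Cdkn1a (84.3, 74.1 to 91.7) and Phlda3 (81.7, 76.2 to 84.4). In this order each gene's range overlapped that of the next, so neighbours are not resolved over both groups together. Within a single group some were apart. Cdkn1a lay above Phlda3 in vehicle (90.9 and 91.7 against 84.4 and 76.2) and below it in NE (80.4 and 74.1 against 82.1 and 84.1). Mdm2 followed alone at 60.0 CPM per kilobase (52.9 to 67.3). The lowest tier held Mdm4 (17.6, 11.9 to 21.8), Sesn2 (16.1, 15.1 to 17.5), Trp53inp1 (13.01, 11.1 to 15.6) and Perp (12.9, 10.6 to 15.5). Over both groups together each range again overlapped the next. Mdm4 lay above Sesn2 in vehicle alone (21.4 and 21.8 against 17.5 and 16.2), and Sesn2 above Trp53inp1 in each group taken alone. These levels used the longest basic transcript of each gene, from 867 nt for Bax to 7105 nt for Mdm4. With the median transcript length, a choice made after the values were seen, Mdm4 stood at 30.6 CPM per kilobase and Cdkn1a at 114, above Trp53 at 97.5. Cdkn1a then lay above Phlda3 in all 4 libraries (99.9 to 124 against 76.2 to 84.4). Their change of order between groups therefore rests on the length used. Mdm4 (20.6 to 37.9) then lay above Sesn2 (15.1 to 17.5) in all 4 libraries, so its place in the lowest tier rests on the length too.

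**Figure D1:**
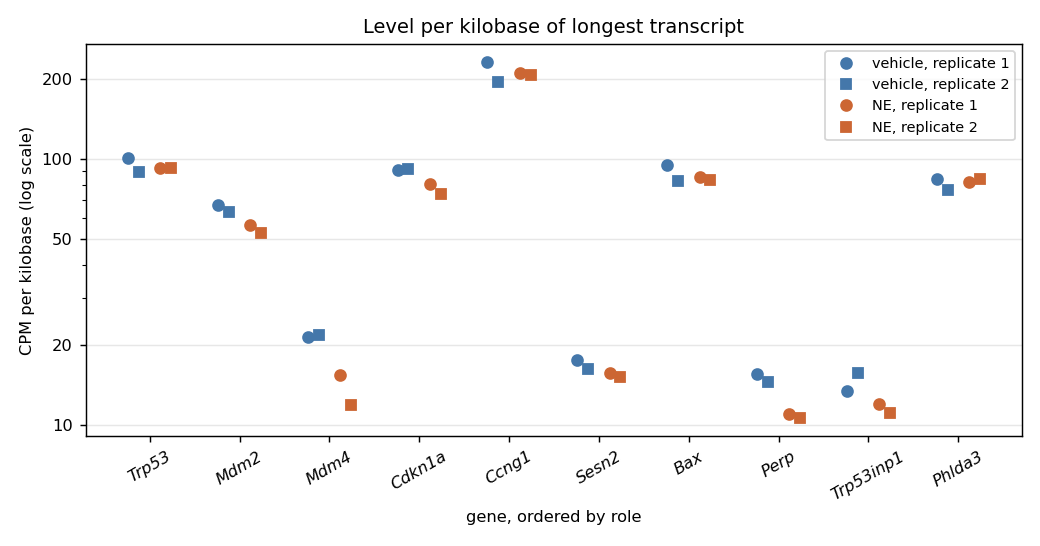
Level of each gene in CPM per kilobase of its longest transcript (vertical axis, log scale), with 1 point per library (blue vehicle, orange NE, circles replicate 1, squares replicate 2) and genes along the horizontal axis by role. Ccng1 stands above all others, and Mdm4, Sesn2, Perp and Trp53inp1 lie between 10.6 and 21.8 CPM per kilobase.

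Promoter sequences show how close to a start site the members carry the half-site that p53 binds, a 10-base consensus known as the p53 half-site. RefSeq promoter windows (GRCm38.p6, 250 bases before to 50 bases after a start) were found for 8 of the 10 members. A half-site that matched the consensus in full was present in 5 of these 8, namely Trp53, Mdm2, Cdkn1a, Ccng1 and Bax, and was not found in the windows of Mdm4, Sesn2 and Phlda3. Among all genes with a window, 9.55% had one, and of 27 other p53 targets with a window 6 had one. The consensus reads the same on both strands, so one search covers both. The 4 windows printed here are those of Cdkn1a, the textbook target, Mdm2, Bax and the inhibitor gene Mdm4, with half-sites in capitals.
Cdkn1a, upstream start, chr17:29090729-29091028, plus strand: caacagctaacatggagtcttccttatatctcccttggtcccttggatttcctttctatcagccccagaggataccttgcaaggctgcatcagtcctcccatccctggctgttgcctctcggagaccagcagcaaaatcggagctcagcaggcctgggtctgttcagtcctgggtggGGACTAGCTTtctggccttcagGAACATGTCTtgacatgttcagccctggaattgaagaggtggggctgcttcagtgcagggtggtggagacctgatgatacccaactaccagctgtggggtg
Mdm2, chr10:117710709-117711008, minus strand: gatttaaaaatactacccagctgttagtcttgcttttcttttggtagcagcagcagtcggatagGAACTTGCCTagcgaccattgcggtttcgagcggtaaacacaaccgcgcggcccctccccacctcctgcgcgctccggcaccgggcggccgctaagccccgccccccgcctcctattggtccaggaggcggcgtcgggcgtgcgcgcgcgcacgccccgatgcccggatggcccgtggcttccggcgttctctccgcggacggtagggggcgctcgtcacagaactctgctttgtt
Bax, chr7:45466849-45467148, minus strand: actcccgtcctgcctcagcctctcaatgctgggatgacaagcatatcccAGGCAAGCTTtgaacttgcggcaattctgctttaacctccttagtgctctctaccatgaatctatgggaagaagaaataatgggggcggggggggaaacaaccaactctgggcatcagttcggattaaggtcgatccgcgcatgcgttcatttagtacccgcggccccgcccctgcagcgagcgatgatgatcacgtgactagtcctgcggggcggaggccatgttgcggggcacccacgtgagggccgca
Mdm4, outer start, chr1:133030538-133030837, minus strand: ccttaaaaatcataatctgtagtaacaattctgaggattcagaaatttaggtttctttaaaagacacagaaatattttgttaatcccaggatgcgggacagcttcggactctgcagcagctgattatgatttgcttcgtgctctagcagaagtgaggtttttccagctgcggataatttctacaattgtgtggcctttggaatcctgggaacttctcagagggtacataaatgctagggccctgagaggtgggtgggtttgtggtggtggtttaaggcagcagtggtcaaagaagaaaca

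In the Cdkn1a window the half-sites that matched in full begin 73 and 51 bases before the start and are separated by 12 bases. Such a pair of full matches, with a spacer of at most 13 bases, was found in 0.0731% of the 32851 windows. The 10 bases directly after the second match, tgacatgttc, miss the consensus at their first base only. Since only full matches were searched, they stay in lower case and were not counted. The window at the downstream start of Cdkn1a held no full match. In Mdm2 the half-site begins 186 bases before the start, and in Bax 201 bases before it. The half-sites of the other 2 genes are shown with 10 bases on each side.
Trp53, chr11:69580274-69580303, plus strand: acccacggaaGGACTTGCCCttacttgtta
Ccng1, chr11:40755452-40755481, minus strand: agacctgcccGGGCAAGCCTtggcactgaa
A match describes the letters and is not evidence of binding. Sites outside these windows, such as those in the first intron of Mdm2 known from the literature, were not searched.

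Between NE and vehicle, 2 of the 10 genes fell, the inhibitor gene Mdm4 and the apoptosis gene Perp, and 0 rose, by edgeR's quasi-likelihood test with Benjamini-Hochberg adjustment over all 11419 genes. Over all genes tested 1.57% were called at the same threshold, an adjusted p under 0.05, with 1.23% lower and 0.342% higher. Since the members were chosen with this contrast known, nothing is read from that share. Of the 10 log2 fold changes 9 were negative, with a median of -0.19, against 50% negative and a median of 0.00 over all genes. For 3 of these 9, Trp53, Ccng1 and Bax, the sign turned when vehicle replicate 1 was left out. In 6 genes both NE libraries lay below both vehicle libraries, as they did in 24.6% of all genes.

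**Figure D2:**
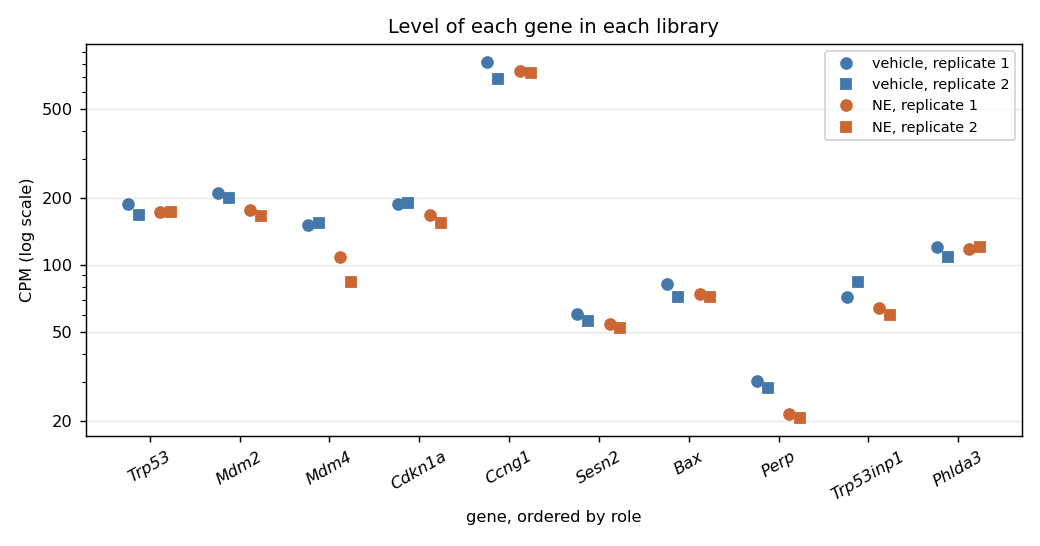
Level of each gene in CPM (vertical axis, log scale) in the 4 libraries, with 1 point per library, blue for vehicle and orange for NE. Mdm4 goes from 152 and 155 CPM in vehicle to 109 and 84.4 CPM in NE, and Perp from 30.3 and 28.2 to 21.5 and 20.6 CPM, whereas the points of Trp53, Ccng1, Bax and Phlda3 overlap between groups.

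Trp53 itself stood at 188 and 167 CPM in vehicle and at 172 and 173 CPM in NE. Both NE values lay between the vehicle values. Its log2 fold change was -0.04 ± 0.07 (SE), with a 95% interval of -0.19 to 0.11 and an edgeR adjusted p = 0.829.

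Mdm4 showed the largest difference of the 10. Vehicle replicates 1 and 2 held 2263 and 2309 counts and NE replicates 1 and 2 held 1707 and 1545, which correspond to 152 and 155 CPM and to 109 and 84.4 CPM. The groups did not overlap, and NE replicate 2 was the lowest library. The group means were 154 ± 2.05 CPM and 96.9 ± 17.7 CPM (SD, n = 2 each), so the spread within NE was much wider than within vehicle. Mdm4 fell by 37.0%, a log2 fold change of -0.67 ± 0.09 (95% interval -0.87 to -0.47, edgeR adjusted p = 0.00257). By p-value it ranked 9 of the 11419 genes. DESeq2 and limma voom also called it (adjusted p = 8.45e-06 and 0.00209).

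Over all genes, log-CPM centred on each gene's mean over the 4 libraries changed by 0.03 per doubling of transcript length in both vehicle libraries. In NE replicates 1 and 2 it changed by -0.01 and -0.05 per doubling. These slopes are relative to the mean of the 4 libraries, so they do not give the trend of a library taken alone. Mdm4 has one of the longer transcripts: the tenth of genes with the longest transcripts had a median log2 fold change of -0.09, and 2.89% of its 1140 genes lay below Mdm4. With each library's length trend removed, the log2 fold change of Mdm4 was -0.59 (edgeR adjusted p = 0.0120). Without NE replicate 2 it was -0.49 and no longer called (adjusted p = 0.128), a setting in which 4 genes of the whole table were called. The counts are per gene, so isoforms of Mdm4, whose splicing is known to decide how much protein is made, were not resolved. The length trend used the longest transcript of each gene, 7105 nt for Mdm4, whose median transcript length was 4092 nt. A trend over other lengths was not tested.

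Mdm2, the ubiquitin ligase and itself a p53 target, had 212 and 199.6 CPM in vehicle and 177 and 166 CPM in NE. The groups did not overlap. The means were 206 ± 8.64 and 172 ± 7.82 CPM (SD, n = 2 each), and the log2 fold change was -0.26 ± 0.07 (95% interval -0.41 to -0.11). It did not pass the threshold (edgeR adjusted p = 0.0698), except without vehicle replicate 2 (adjusted p = 0.00871).

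Ratios of counts within a library need no scaling for depth between libraries. The differences in length trend between libraries stay in them, since the transcripts differ in length (Mdm4 7105 nt, Mdm2 3145 nt, Trp53 1867 nt). Their part in the ratios was not tested. The ratio of Mdm4 to Mdm2 counts was 0.718 and 0.777 in vehicle and 0.617 and 0.508 in NE. For Mdm4 to Trp53 it was 0.810 and 0.926 in vehicle and 0.634 and 0.488 in NE, and for Mdm2 to Trp53 it was 1.13 and 1.19 against 1.03 and 0.961. The ratios of Mdm4 to Mdm2 and of Mdm2 to Trp53 were each lower in both NE libraries than in either vehicle library. The ratio of Mdm4 to Trp53 is the product of these, so its lower values follow from them and add nothing. The members were chosen with this contrast known, so the ratios are a description only. With 2 libraries per group an exact permutation test of a ratio cannot go below 0.333, so none was made.

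**Figure D3:**
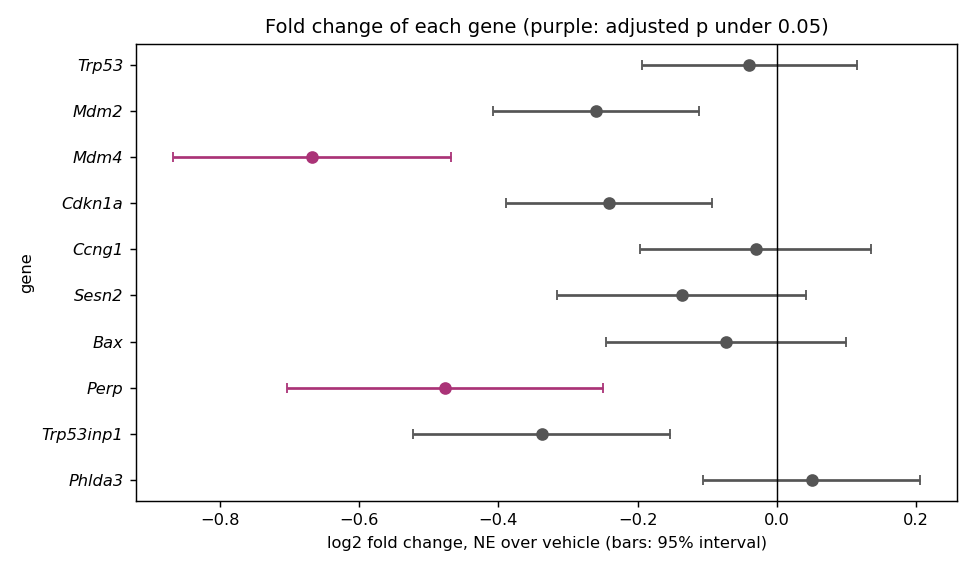
Log2 fold change of each gene, NE over vehicle (horizontal axis), with 95% intervals as bars and genes by role from top to bottom. Purple marks an adjusted p under 0.05, reached by Mdm4 at -0.67 and Perp at -0.48, and the intervals of Trp53, Ccng1, Sesn2, Bax and Phlda3 include 0.

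Of the cell cycle targets, Cdkn1a encodes p21, the inhibitor of cyclin-dependent kinases that carries much of the arrest induced by p53. It had 189 and 191 CPM in vehicle and 167 and 154 CPM in NE, without overlap between groups. Its log2 fold change was -0.24 ± 0.07 (95% interval -0.39 to -0.09), which missed the threshold (edgeR adjusted p = 0.0873). Its exons share 273 bases with a predicted transcript on the opposite strand, and the strand setting of the counting is not given in the sources used here. Ccng1, the most abundant of the 10, had 817 and 687 CPM in vehicle and 741 and 731 CPM in NE. Both NE values lay between the vehicle values, and the log2 fold change was -0.03 ± 0.08 (95% interval -0.20 to 0.13, adjusted p = 0.883).

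Sesn2 encodes sestrin 2, a stress protein that restrains the growth kinase complex mTORC1 (its gene also responds to stress pathways other than p53). It had 60.8 and 56.5 CPM in vehicle and 54.3 and 52.3 CPM in NE. The groups did not overlap, but the log2 fold change of -0.14 ± 0.08 had a 95% interval of -0.32 to 0.04 and did not pass (edgeR adjusted p = 0.430).

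Of the 4 apoptosis targets 1 passed the test. Perp, which encodes a membrane protein of desmosomes that also takes part in p53-dependent cell death, was the least abundant. It had 451 and 420 counts in vehicle and 335 and 377 in NE, or 30.3 and 28.2 CPM against 21.5 and 20.6 CPM. The groups did not overlap (29.3 ± 1.498 and 21.03 ± 0.615 CPM, SD, n = 2 each). An SD from 2 libraries is only a rough measure of spread. Perp fell by 28.1%, a log2 fold change of -0.48 ± 0.11 (95% interval -0.70 to -0.25, edgeR adjusted p = 0.0408). The call was lost with DESeq2 (adjusted p = 0.112), with the length trend removed (log2 fold change -0.52, adjusted p = 0.05405), and without NE replicate 1 or 2 (adjusted p = 0.143 and 0.533).

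Trp53inp1 encodes a stress-induced protein that promotes p53-dependent death and autophagy. It had 72.4 and 84.5 CPM in vehicle and 64.5 and 59.8 CPM in NE, without overlap. The log2 fold change was -0.34 ± 0.09 (95% interval -0.52 to -0.15), just short of the threshold (edgeR adjusted p = 0.0594). It was called without vehicle replicate 1 (log2 fold change -0.45, adjusted p = 0.00100) and stood at -0.22 without vehicle replicate 2 (adjusted p = 0.205). It was also called without the filter on low counts (adjusted p = 0.0392) and with the replicate number as a block (0.0396).

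Bax, the pore-forming protein of the mitochondrial death pathway, had 82.5 and 71.8 CPM in vehicle and 74.4 and 72.3 CPM in NE. Both NE values fell within the vehicle range, and its log2 fold change was -0.07 ± 0.08 (95% interval -0.25 to 0.10, edgeR adjusted p = 0.696). Phlda3, which encodes a small lipid-binding protein that holds back the kinase Akt, had 121 and 109 CPM in vehicle and 118 and 121 CPM in NE. Its log2 fold change of 0.05 ± 0.07 (95% interval -0.11 to 0.21, adjusted p = 0.777) was the only positive one of the 10. Exons of Bax share 192 bases with the predicted gene Gm45808, which had 0 counts.

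Other p53 targets were counted on a list written from general knowledge of the pathway. This list and those below were chosen with earlier results of these data known. Their counts are therefore a description and no independent support. Of 34 genes, 33 were in the table and 32 could be tested. Among these 2 fell and 0 rose, against 1.23% and 0.342% of all genes, and 26 log2 fold changes were negative (median -0.15, range -0.72 to 0.23). An unadjusted p under 0.05 was found for 10 genes below 0 and 1 above it, against 9.82% and 7.48% of all genes. Those that fell were Pidd1, which encodes a scaffold of the caspase-2 complex, and the phosphatase gene Ptp4a3.

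Pidd1 had 19.9 and 23.3 CPM in vehicle and 13.3 and 14.1 CPM in NE (log2 fold change -0.65 ± 0.13, edgeR adjusted p = 0.0284). Ptp4a3 had 12.5 and 16.3 CPM in vehicle and 8.91 and 8.63 CPM in NE (-0.72 ± 0.17, adjusted p = 0.0443). In both genes the groups did not overlap. Neither was called without NE replicate 1 (adjusted p = 0.141 for Pidd1 and 0.166 for Ptp4a3), without NE replicate 2 (0.344 and 0.533) or with the length trend removed (0.0539 and 0.0774), and DESeq2 gave neither an adjusted p. The log2 fold changes in these 3 settings were -0.61, -0.70 and -0.65 for Pidd1 and -0.74, -0.69 and -0.70 for Ptp4a3, close to those with all libraries. Ptp4a3 was also lost without vehicle replicate 2 (adjusted p = 0.135) and with total counts as scaling (0.0502). The microtubule-linked gene Psrc1 (-0.27 ± 0.07, adjusted p = 0.0739) and the antiproliferative gene Btg2 (-0.42 ± 0.12, adjusted p = 0.0929) came next and did not pass. Btg2 was called without vehicle replicate 1 (adjusted p = 0.0332) and stood at -0.24 without NE replicate 2.

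Genes that modify p53 or work with it showed no call. Of 26 such genes, all tested, the count called was 0 in each of edgeR, limma voom and DESeq2. Over all 11419 genes edgeR called 179 (1.57%), limma voom 215 and DESeq2 75. With shares this low, 0 of 26 says little about these genes. In edgeR 8 reached an unadjusted p under 0.05, 3 below and 5 above 0, against 9.82% and 7.48% of all genes. The log2 fold changes were 14 negative and 12 positive (median -0.04). The acetyltransferase gene Crebbp stood at -0.27 ± 0.08 (edgeR adjusted p = 0.0976) and Hipk2, a kinase that acts on p53, at 0.36 ± 0.12 (adjusted p = 0.151). The DNA-damage kinase gene Prkdc (-0.23 ± 0.09, adjusted p = 0.181) and the ubiquitin ligase gene Trim24 (-0.18 ± 0.07, adjusted p = 0.222) did not pass either. Hipk2 rested on single libraries: its log2 fold change was 0.62 and called without vehicle replicate 2, but 0.13 without vehicle replicate 1 and 0.18 without NE replicate 1. Crebbp was called without vehicle replicate 2 (adjusted p = 0.0456), and with the length trend removed it stood at -0.16 and Prkdc at -0.11.

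The p53 relatives were barely detected. Trp63, the p53 relative of basal epithelial cells, had 2, 10, 2 and 5 counts in vehicle replicates 1 and 2 and NE replicates 1 and 2. Trp73 had 1 count in all. Neither passed the filter on low counts, so 0 of the 2 could be tested.

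Genes that p53 is known to repress through p21, most of them genes of mitosis and DNA replication, were mostly positive in fold change without passing the test. Of 20 tested genes 15 had a positive log2 fold change (median 0.09). None passed in edgeR or limma voom, where 0 of 20 were called, and DESeq2 called 1, Mki67, in the negative direction. Over all 11419 genes 50% were negative, and edgeR called 179 (1.57%), limma voom 215 and DESeq2 75. In edgeR 7 of the 20 had an unadjusted p under 0.05, 5 above and 2 below 0, against 7.48% and 9.82% of all genes. The proliferation marker Mki67 had 1158 and 1160.3 CPM in vehicle and 1011 and 942 CPM in NE (-0.25 ± 0.07, edgeR adjusted p = 0.0741). It stood at -0.14 with the length trend removed, and was called without vehicle replicate 1 or 2 (adjusted p = 0.0204 and 0.0194). The spindle checkpoint genes Bub1b (0.20 ± 0.07, adjusted p = 0.132) and Bub1 (0.20 ± 0.07, adjusted p = 0.146) and the mitotic kinase gene Cdk1 (0.21 ± 0.07, adjusted p = 0.137) had positive values and did not pass, except for Cdk1 without vehicle replicate 1 (adjusted p = 0.0478). Without NE replicate 2 Cdk1 stood at 0.13.

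**Figure D4:**
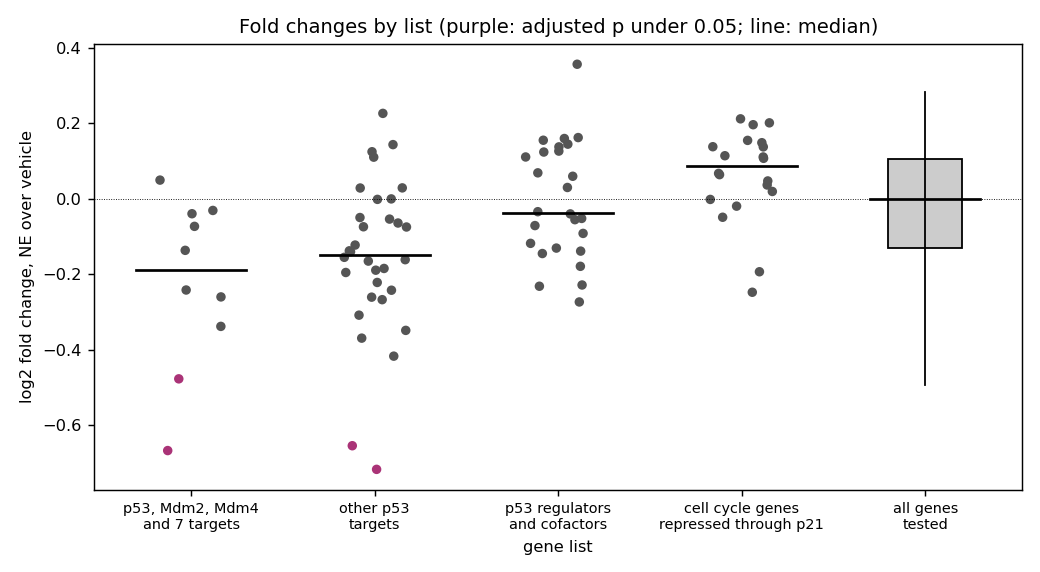
Log2 fold change, NE over vehicle (vertical axis), of each tested gene in 4 lists, with 1 point per gene, purple for an adjusted p under 0.05 and a line at the median. For all 11419 genes the box spans the 25th to the 75th percentile and the line the 5th to the 95th, from -0.49 to 0.28, and the medians of the lists are -0.19, -0.15, -0.04 and 0.09 from left to right.

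The genes closest to Perp and Mdm2 in their pattern over the 4 libraries were found by the root mean square difference of centred log2 CPM. The search covered 8860 genes that averaged 10 CPM or more. The members and predicted gene models (names of Gm and digits, or ending in Rik) were left out. For Perp these were the laminin gene Lamb2, Tcirg1, a proton pump subunit gene, and Hinfp, a histone gene transcription factor, with differences of 0.0188, 0.0236 and 0.0266. For Mdm2 they were the chloride transporter gene Clcn7, the potassium chloride cotransporter gene Slc12a4 and Sorbs3, an adhesion adaptor gene, with differences of 0.00225, 0.00678 and 0.0108. With 4 libraries many genes share a pattern, and this is a description only.

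Leaving out single libraries moved the members unequally. The log2 fold change of Mdm4 ranged from -0.86 to -0.49 over all alternatives and that of Perp from -0.53 to -0.42. All 12 alternatives gave a negative value for these genes, for Mdm2 (-0.30 to -0.21), Cdkn1a (-0.30 to -0.18), Trp53inp1 (-0.45 to -0.22) and Sesn2 (-0.19 to -0.08). In these 6 genes both NE libraries lay below both vehicle libraries, as in 24.6% of all genes. Leaving out 1 library can then hardly turn the sign, and the other settings refit the same counts. The shared sign is therefore no added support for a direction. The sign of Trp53, Ccng1, Bax and Phlda3 turned in at least 1 of the alternatives, so no direction is given for these 4.

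**Figure D5:**
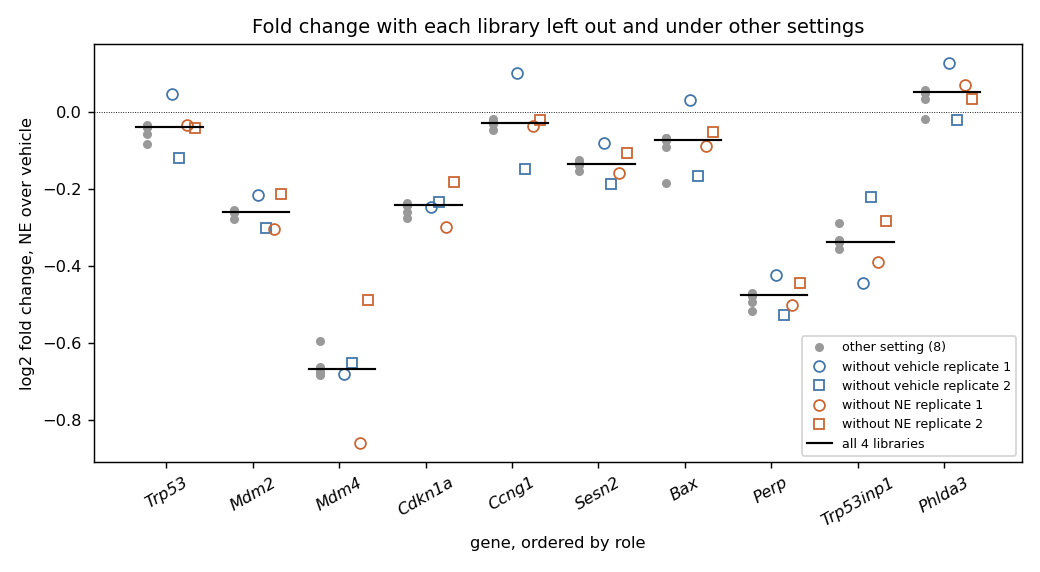
Log2 fold change of each gene, NE over vehicle (vertical axis), with all 4 libraries (black line), with 1 library left out (open symbols, blue for a vehicle and orange for an NE library) and under 8 other settings (grey points). Mdm4 lies at -0.49 without NE replicate 2 and at -0.86 without NE replicate 1, and Trp53, Ccng1, Bax and Phlda3 have values on both sides of 0.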

How the data were processed

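Read counts per gene for 2 vehicle and 2 NE libraries were used as deposited, whole and unnormalized per the file headers, with GRCm39 (mm39) as genome build, per the submitters' processing notes. Aligner, counter, annotation and strand setting were not stated in the labels. Groups came from sample titles, and columns were matched by the labels' descriptions. edgeR 4.0.16 (R 4.3.3) was run with filterByExpr (minimum count 10, minimum total 15), TMM scaling and group as the only term of the quasi-likelihood fit, with Benjamini-Hochberg adjustment over 11419 genes. SE was obtained as the absolute log2 fold change over the square root of F. CPM uses TMM-scaled totals of tested genes, whereas marker sums and the limit for 0 counts use total counts. Limits cover counting error only, because the reads carry no molecular identifiers.

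Transcript lengths (longest basic transcript, 21973 genes matched) and exon overlaps came from GENCODE M21, and promoters from RefSeq (GRCm38.p6). No coordinates were carried between builds. Alternatives were scaling by DESeq2 size factors or by total counts, other filters, DESeq2 1.42.0, limma voom (limma 3.58.1), a replicate block, each library left out, and removal of the length trend by offsets. The fit was tested on simulated counts. Members and lists were chosen with earlier results of these data known. Named genes are the 10 members, up to 4 genes per other list (called first, then smallest p), the 3 genes most like Perp and Mdm2, and 7 markers, of which Col1a1 is not described singly.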

Additional observations from a re-analysis of the deposited data

How the results depend on the processing

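Of the 10 members 2 were called with all libraries. The count was 1 with the length trend removed and 1 in DESeq2 (Mdm4 in both), and ranged from 0 to 3 with single libraries left out, where a lone library is assumed to vary like the other group. Of the other p53 targets 2 were called; this became 1 with total counts as scaling, 0 with the length trend removed, 0 in DESeq2, and 0 to 3 with libraries left out. For p53 regulators the range was 0 to 2, and for cell cycle genes 0 to 2, with 1 in DESeq2. Over all genes 179 were called (39 higher, 140 lower); it was 309 without the filter, 320 with the replicate block, 31 with the length trend removed, 75 in DESeq2, and 4 to 740 with libraries left out. Total counts as scaling gave 15 higher and 123 lower. The cause of these shifts was not tested.

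With single libraries left out, the log2 fold change ranged from -0.12 to 0.047 for Trp53, -0.15 to 0.10 for Ccng1, -0.17 to 0.030 for Bax (each positive without vehicle replicate 1) and -0.021 to 0.13 for Phlda3 (negative without vehicle replicate 2). For Phlda3 it was also negative with the length trend removed (-0.019). None of these values was called. Deviations of same-numbered libraries correlated at -0.06 over genes, so no effect shared by replicate number was seen. That value cannot show whether the libraries were paired by design, and the labels do not say. With the replicate block 3 members were called, Mdm4, Perp and Trp53inp1 (log2 fold change -0.34, adjusted p = 0.0396). DESeq2 gave no adjusted p for 3764 genes.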
